A study of Sus scrofa with 13 samples.

Results

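The 6 libraries described here came from mesenchymal stem cells kept at 20% oxygen (normoxia), and all 27339 genes of their count tables were ranked by their reads. They are 6 of the 12 libraries with count tables in the series. The other 6, from cells held for 48 hours at 1% oxygen (hypoxia), served here only as libraries outside the ranking. The cells of both groups were grown from the abdominal fat of female domestic pigs that ate a high-cholesterol diet and had a coil placed in a renal artery to narrow it. They were freed with collagenase and expanded over a few passages in medium with platelet lysate. Each library is named below by the number that starts its title (110, 16, 21, 33, 49 and 4). The labels do not say whether these numbers stand for animals, so the spread between libraries may be partly technical. No cells of healthy pigs are among the libraries described.

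5-hydroxymethylcytosine (5hmC) is made when TET enzymes oxidise methylated cytosine in DNA. It is an intermediate of active demethylation and also a lasting mark, known mainly from the bodies of transcribed genes and from enhancers. Mesenchymal stem cells are stromal cells that lay down matrix and can form fat, bone and cartilage. Here, sonicated and denatured DNA was pulled down with an antibody against 5hmC and sequenced, and the authors counted the reads that fell on each gene. A read shows that a DNA fragment was captured and not that the gene was transcribed, so reads on a marker gene do not check the labelled cell type.

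Between 1.69 and 2.89% of the reads in each table were counted on genes, which left 263578 to 714002 gene reads per library. Whether exons or whole genes were counted is not given. The remaining reads may therefore include reads in introns, and the ranking may not cover whole gene bodies. Counts are given as CPM, each gene's reads scaled to the library's total of gene reads. A single read was worth 1.40 CPM in the deepest library, 4, and 3.79 CPM in the shallowest, 21. No gene lengths were used, so the order is that of reads per gene. A long gene can stand high without being densely marked, and levels of different genes are not comparable per length here.

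The libraries ordered the genes alike, with library 21 standing apart. Across the 25482 genes that the RefSeq table of Sscrofa11.1 places on a chromosome, the rank correlation between pairs of the other 5 libraries was 0.850 to 0.916. For the 5 pairs that include library 21 it was 0.750 to 0.804. These are correlations across genes, which are not independent replicates. Library 21 also had the smallest share of reads in genes (1.69%, against 2.48 to 2.89%), the largest share of low alignment quality (10.3%, against 4.12 to 6.21%) and the widest peaks (median 556 bases, against 257 to 359). Its part in the results below was not tested beyond the values given without it.

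Reads were spread over most genes. Of the 27339 genes, 25095 had at least 1 read in the 6 libraries together, and 18531 (67.8%) had a read in every library. Another 6564 were read in some libraries only, 577 of them in just 1. At least 10 reads in every library were reached by 5974 genes. The gene in the middle of all genes had 16.4 CPM, and the one in the middle of the genes with a read had 19.2 CPM. Among genes placed on a chromosome the middle one had 18.6 CPM. Going up the order, mean CPM was 166 at rank 1000, 399.8 at rank 100, 663 at rank 20, 937 at rank 10 and 2263 at rank 1. The rise is thus steep only at the very top: 2407 genes had more than 100 CPM, 48 more than 500 and 6 more than 1000. The highest 100 genes together held 5.86 ± 0.706% of gene reads (SD, n = 6 libraries), from 4.82% in library 4 to 6.46% in library 110. There was no break at the edge of this class, since rank 100 had 399.8 CPM and rank 101 had 398.2.

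**Figure D1:**
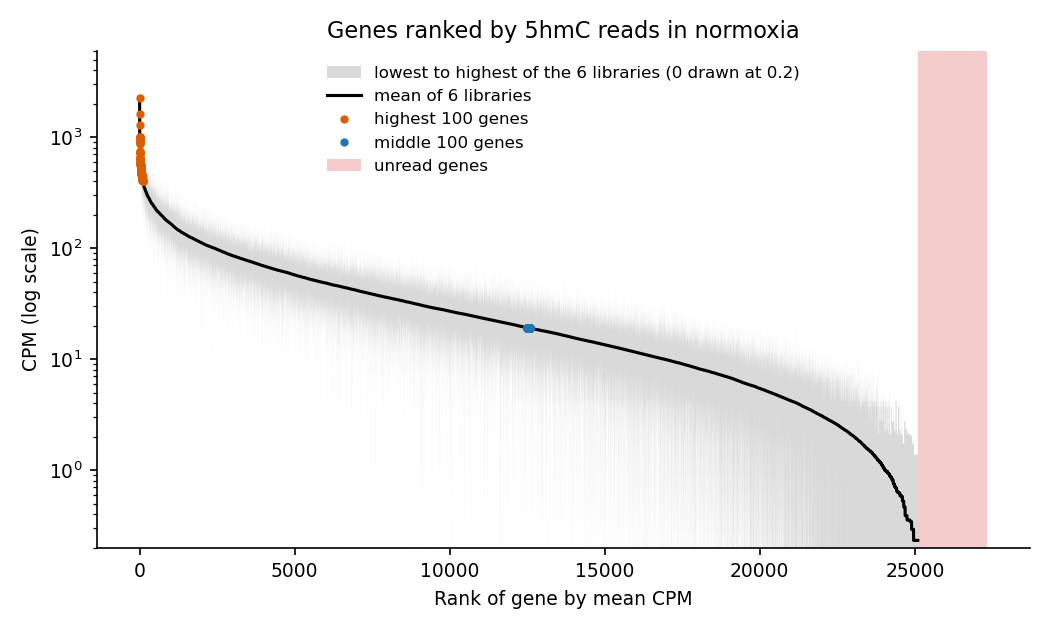
Mean CPM of each gene (black line, log scale) against its rank, with the range from the lowest to the highest of the 6 normoxia libraries in grey; the highest 100 genes (399.8 to 2263 CPM) are orange, the middle 100 (19.01 to 19.28 CPM) blue, and the 2244 genes without a read fill the pink band. The line falls steeply over the first ranks and slowly over most of the rest.

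The gene with the most reads was LOC110257572, a long noncoding RNA gene that lies next to the microRNA gene MIR29B-1 in the RefSeq table. It had 2653 CPM in library 110, 2386 in 16, 1445 in 21, 2371 in 33, 3138 in 49 and 1584 in 4, a mean of 2263 ± 644 (SD, n = 6). It stood first in 5 libraries and seventh in library 21. MIR29B-1 itself, whose product is known to repress collagen messages, had 8.05 ± 4.48 CPM. The other neighbour, LOC106506781, had 108 ± 30.0 CPM, so neither gene beside the top gene was among the highest.

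ZBTB20, which encodes a zinc finger repressor of transcription, was second. Its CPM were 2090 in library 110, 1147 in 16, 1798 in 21, 1760 in 33, 1478 in 49 and 1333 in 4, with a mean of 1601 ± 345. It kept a rank between 2 and 4 in every library. FN1, the gene of the matrix protein fibronectin, followed. It had 1283 CPM in library 110, 1160 in 16, 1066 in 21, 1336 in 33, 1850 in 49 and 949.6 in 4, with a mean of 1274 ± 315. The libraries' values for FN1 overlap with those for ZBTB20, and their order was reversed in libraries 16 and 49.

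Of the other genes among the 20 highest, 4 encode regulators of RNA, chromatin or transcription. SMG6, an endonuclease of nonsense-mediated decay, had 1007 ± 215 CPM. Libraries other than 21 lay between 1038 and 1201 and library 21 at 584, where SMG6 was only at rank 68. JARID2, a partner of the Polycomb repressive complex, had 959 ± 234 CPM and a rank between 3 and 32. RBFOX2, a splicing factor, had 898 ± 161 CPM and a rank between 6 and 30. HIVEP2, a zinc finger transcription factor, followed at 721 ± 161 CPM with ranks between 12 and 59.

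Besides FN1, 4 of the 20 encode proteins of the cell surface or the matrix. BMPR1B, a receptor for bone morphogenetic proteins, had 902 ± 211 CPM and ranked between 6 and 28. LRRC8D, a subunit of volume-regulated anion channels, had 834 CPM in library 110, 528 in 16, 478 in 21, 1748 in 33, 1140 in 49 and 1237 in 4. Its values were spread over a range of 478 to 1748 and its rank ran from 3 in library 33 to 121 in library 21. COL12A1, a collagen that sits on the surface of fibrils, had 911 CPM in library 110, 449 in 16, 508 in 21, 1475 in 33, 875 in 49 and 966 in 4. Library 33 was highest for both genes, and libraries 16 and 21 were lowest.

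THBS1 encodes thrombospondin, a matrix protein that activates latent TGF-beta. Its CPM were 1186 in library 110, 1066 in 16, 391 in 21, 365 in 33, 1019 in 49 and 365.5 in 4, with a mean of 732 ± 396. The libraries fell into a high and a low set of 3 with nothing between 391 and 1019, and the mean describes neither. The gene's rank was 5 to 7 in the high set and 107 to 219 in the low set.

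The remaining genes of the 20 include several with no known product. LOC110261655, a noncoding gene beside the prolactin gene PRL, had 1002 ± 216 CPM, and SAMD12 had 1002 ± 266. C14H12orf49, the pig form of a regulator of the sterol-sensing SREBP pathway, had 885 ± 145.5 CPM and a rank between 8 and 18. GNPTAB, which builds the mannose-6-phosphate tag of lysosomal enzymes, had 663 ± 112. LOC110256171, the neighbour of the microRNA gene MIR378-2, had the tightest values of the 20: 791 CPM in library 110, 673 in 16, 744 in 21, 896 in 33, 748 in 49 and 643 in 4, a mean of 749 ± 90.0. LOC106509907, also noncoding, had 719 ± 189 CPM.

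For 3 of the 20, library 21 lay far above the other 5 libraries. LOC110257546, a noncoding gene between COPG2 and the imprinted gene MEST, had 2364 CPM in library 21 and 477 to 910.5 in the other 5. LOC100624460, a coding gene without a named product, had 2550 CPM in library 21 and 384 to 816 elsewhere. NACA, a subunit of the complex that binds nascent chains at the ribosome, had 1764 CPM in library 21 and 331 to 695 elsewhere. Without library 21 their means were 722 ± 157, 615 ± 171 and 537 ± 148 CPM (SD, n = 5), against 996 ± 685, 937 ± 804 and 742 ± 518 with it. With library 21 left out, LOC110257546 lay above LOC106509907 (711 ± 210) and GNPTAB (667 ± 125), but by less than the SDs. LOC100624460 and NACA then lay below both. Relative to the mean over all 6 libraries LOC110257546, LOC100624460 and NACA had the largest spread of the first 20. In CPM the spread of LOC110257572 was wider than that of NACA.

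**Figure D2:**
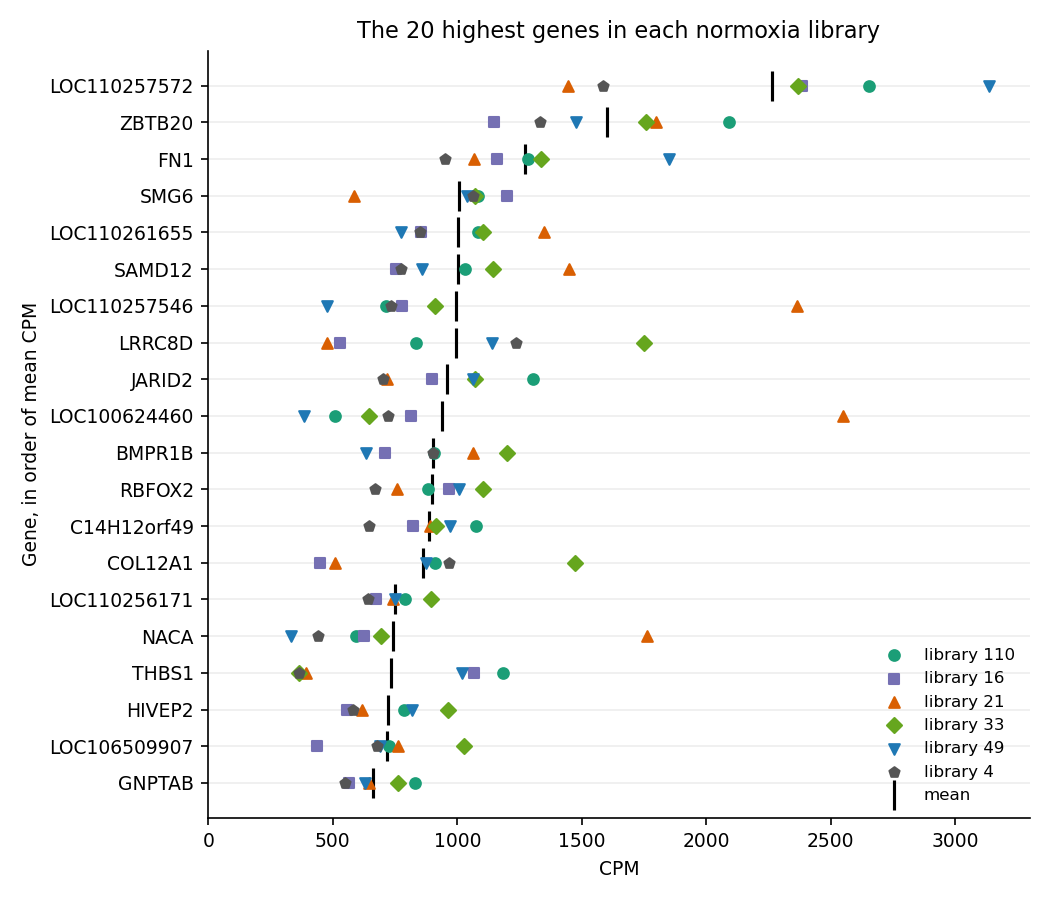
CPM in each normoxia library (points, linear scale) and mean of 6 (black bar) for the 20 genes with the highest mean. Library 21 (orange triangles) lies far to the right for LOC110257546, LOC100624460 and NACA and to the left for SMG6, and THBS1 splits into a set at 365 to 391 CPM and a set at 1019 to 1186.

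In all, 15 of the 20 were among the highest 100 of every single library. Of the highest 100 genes, 24 were in the highest 100 of each of the 6 libraries, and 40 in that of each of the 5 without library 21. A library's own highest 100 shared 67 to 77 genes with the group's 100 in the other 5 and 48 in library 21. Since each library is part of the group's mean, it was also set against the mean of the remaining 5: 61 to 69 genes were then shared, and 37 for library 21.

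The highest 100 held 78 protein-coding and 22 long noncoding RNA genes, close to the shares among all genes (75.5 and 20.5%). None of them lies next to another of the 100 in the RefSeq order. Beyond the first 20, the genes named in the rest of this paragraph were chosen after their values were seen. Matrix and adhesion genes recur: TNC (tenascin, 492 ± 180 CPM), COL7A1 (496 ± 145), COL14A1 (440 ± 129), COL6A3 (428 ± 134) and the laminin chain LAMB1 (513 ± 154). So do enzymes that remodel the surroundings of the cell, such as the protease ADAM12 (574 ± 126 CPM) and the heparan sulphate sulphatase SULF1 (559 ± 118). Transcription factors include ZBTB38 (647 ± 185 CPM), BNC2 (606 ± 186), FOXP1 (526 ± 83.5), KLF12 (417 ± 156) and MECOM (404 ± 68.7). Chromatin genes include ARID5B (531 ± 105 CPM), the deacetylase HDAC9 (521 ± 87.8), MBD5 (411 ± 198) and KMT2E (408 ± 159). The means of MBD5 and KMT2E were raised by library 21, with 774 CPM (others 238 to 466) and 706 CPM (others 276 to 419). No enrichment was tested for these themes.

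The list of matrix genes holds some of these. Its 23 members in the table had a median of 174 CPM, against 16.4 for all genes, and in single libraries the median ran from 137 to 207 CPM against 11.4 to 18.2. Of the 23, 22 were above the median of all genes and 12 (52.2%) were among the first 1000, against 3.66% of all genes. FN1, COL12A1, TNC and COL6A3 (17.4% of the list) were among the highest 100, against 0.366% of all genes. The members were chosen with earlier results of these data known. The fibril collagens lay below them, with COL3A1 at 345 ± 153, COL1A1 at 237 ± 87.8 and COL1A2 at 125 ± 33.3 CPM. DCN, the small proteoglycan decorin, had only 18.4 ± 10.8 CPM, close to the median of all genes. COL6A2 had no read in any library and is one of the genes without a place on a chromosome described below.

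Long genes stood equally high. The 39 genes listed for their very large coding sequences had a median of 201 CPM. Of them 21 (53.8%) were among the first 1000, against 3.66% of all genes. UBR4, a giant ubiquitin ligase, led with 561 ± 136 CPM, followed by DST, a linker of the cytoskeleton, with 429 ± 56.1. Since the order is by reads per gene, the length of a gene and its 5hmC cannot be told apart in either list. DYNC1H1 and AHNAK2, from the same list, had no read.

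Surface markers of stromal cells had a median of 68.6 CPM over 15 genes, 13 of them above the median of all genes. CD44, the hyaluronan receptor, led with 383 CPM in library 110, 222 in 16, 266 in 21, 363 in 33, 401 in 49 and 178 in 4. ITGA1, a collagen-binding integrin, followed with 221 ± 64.8 CPM. NGFR was lowest with 9.03 ± 7.18 and no read in library 21. Of the markers commonly used to define these cells, NT5E (CD73) had 49.3 ± 12.6 CPM, ENG (CD105) 63.4 ± 32.9 and THY1 (CD90) 27.2 ± 15.7. ENG and THY1 were lowest in library 21, at 7.59 and 3.79 CPM.

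Lists of other cell types and tissues had lower medians than the stromal markers, by unequal amounts. Markers of immune cells had a median of 62.2 CPM over 12 genes, those of endothelium 46.5 over 10 and synaptic genes 46.5 over 16. Smooth muscle genes had 25.7 CPM, and epithelial genes (14.0), liver genes (13.5) and germ line genes (7.14) lay below the median of all genes. CD68, a macrophage protein, had 169 ± 31.8 CPM, and FLT1, an endothelial receptor for VEGF, had 317 ± 143. DLG2, a synaptic scaffold, had 299 ± 53.7 CPM and SYT1, a calcium sensor of vesicle release, 174 ± 55.8, while CNTNAP2, an adhesion protein of axons, had 10.2 ± 3.53. The lowest immune marker was CD14, a coreceptor for endotoxin, with 1.38 ± 1.72 CPM, and PECAM1 was second of the endothelial list with 171 ± 40.2. CD8A, the second of the immune list, had 101 ± 72.6 CPM, of which library 21 held 247 against 53.4 to 93.8 elsewhere. PTPRC (CD45), the leukocyte marker used to exclude blood cells from such cultures, had 77.2 ± 18.9 CPM, more than THY1. CLDN5, of the endothelial list, had no read. Members of each of these 7 lists overlapped in level with the stromal markers, which ran from 9.03 to 302 CPM. The differences between lists were not tested, no gene length enters them, and nothing about which cells were present follows from them.

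The lists of differentiation programs differed in level. The 18 genes of bone and cartilage had a median of 33.3 CPM. SOX5 and SOX6, partners of SOX9 in cartilage, had 388 ± 121 and 387 ± 173 CPM, and RUNX2, the regulator of bone formation, had 356 ± 92.8. BGLAP, which encodes osteocalcin, had 0.527 ± 0.824 CPM. The 16 genes of the adipocyte program had a median of 10.9 CPM, below the median of all genes. PLIN2, a coat protein of lipid droplets, had 207 ± 52.6 CPM, ADIPOQ, the gene of adiponectin, 138 ± 48.0, and PPARG, the regulator of fat cell formation, 64.6 ± 13.7. CEBPB, an early factor of that program, had 1 read in all, in library 110.

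Enzymes that write and remove DNA methylation had intermediate levels. The list of 14 had a median of 46.4 CPM, 12 of them above the median of all genes and none among the first 1000. TET1, TET2 and TET3, which make 5hmC, had 57.0 ± 13.3, 84.3 ± 27.4 and 85.8 ± 53.4 CPM. TET3 ranged from 26.6 CPM in library 21 to 154 in library 33, whereas TET2 was highest in library 21, at 137 CPM. MBD2, a reader of methylated DNA, led the list with 153 ± 43.5 CPM.

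Further lists lay between these. The 18 cell cycle genes had a median of 44.3 CPM, led by CDK6 (317 ± 107 CPM), the symbol of a kinase whose entry the RefSeq table records as noncoding, and the kinase CDK1 (167 ± 60.1), with CCNE1, a cyclin of S-phase entry, at 1.52 ± 1.43. The 16 imprinted genes in the table had a median of 28.1 CPM. GRB10, a brake on insulin signalling, had 139 ± 38.1 CPM and PLAGL1, a zinc finger factor, 132 ± 22.5, and SNRPN had no read. The 10 smooth muscle and pericyte genes had a median of 25.7 CPM, from CALD1, an actin-binding protein, with 153 ± 84.7 to LMOD1, an actin nucleator, with 9.06 ± 7.09. The 9 epithelial genes had a median of 14.0 CPM. CDH1, the adhesion protein E-cadherin, had 68.9 ± 14.0 CPM and GRHL2, an epithelial transcription factor, 61.5 ± 24.6, against 3.37 ± 2.88 for the keratin KRT5.

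Families taken by name spread as widely. The 43 collagen chain genes had a median of 67.6 CPM and 4 (9.30%) were among the highest 100, against 0.366% of all genes. The 355 solute carrier genes had a median of 28.0 CPM, the 258 zinc finger genes named ZNF 17.8, the 13 protocadherin genes 14.0 and the 4 histone genes found by name 1.97. The 9918 genes with a name starting LOC had a median of 8.79 CPM, and 24 of them (0.242%) were among the highest 100.

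Genes in constant use had medians below that of all genes, 16.4 CPM. The 12 housekeeping genes had a median of 13.6 CPM, from B2M with 2.06 ± 1.92 to GAPDH with 88.8 ± 43.1 and ACTB with 66.2 ± 38.3. By library, their median was above that of all genes in 33 (15.2 against 14.0 CPM) and 49 (18.5 against 14.1) and below it in the rest. ACTB had 1 read in library 21 (3.79 CPM) and 46.8 to 118 CPM in the other 5. Cytosolic ribosomal protein genes had a median of 9.76 CPM over 81 genes, of which RPL18 had no read. Keratin genes had 6.35 CPM over 36 genes. Germ line genes had 7.14 over 11, from TEX14 (74.0 ± 23.5 CPM) and DAZL, an RNA-binding protein of germ cells (18.7 ± 10.9), to the protamine PRM1 (1.21 ± 1.35). Liver genes had 13.5 over 12, from APOB (57.0 ± 47.3 CPM) and F2, which encodes prothrombin (48.2 ± 23.9), to APOA1 (1.97 ± 2.06). The 36 HOX genes, which keep positional identity in stromal cells, had a median of 24.9 CPM, and homeobox genes outside the HOX clusters 10.3 over 66. The 315 microRNA genes had a median of 0.390 CPM, and 115 of them had no read.

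**Figure D3:**
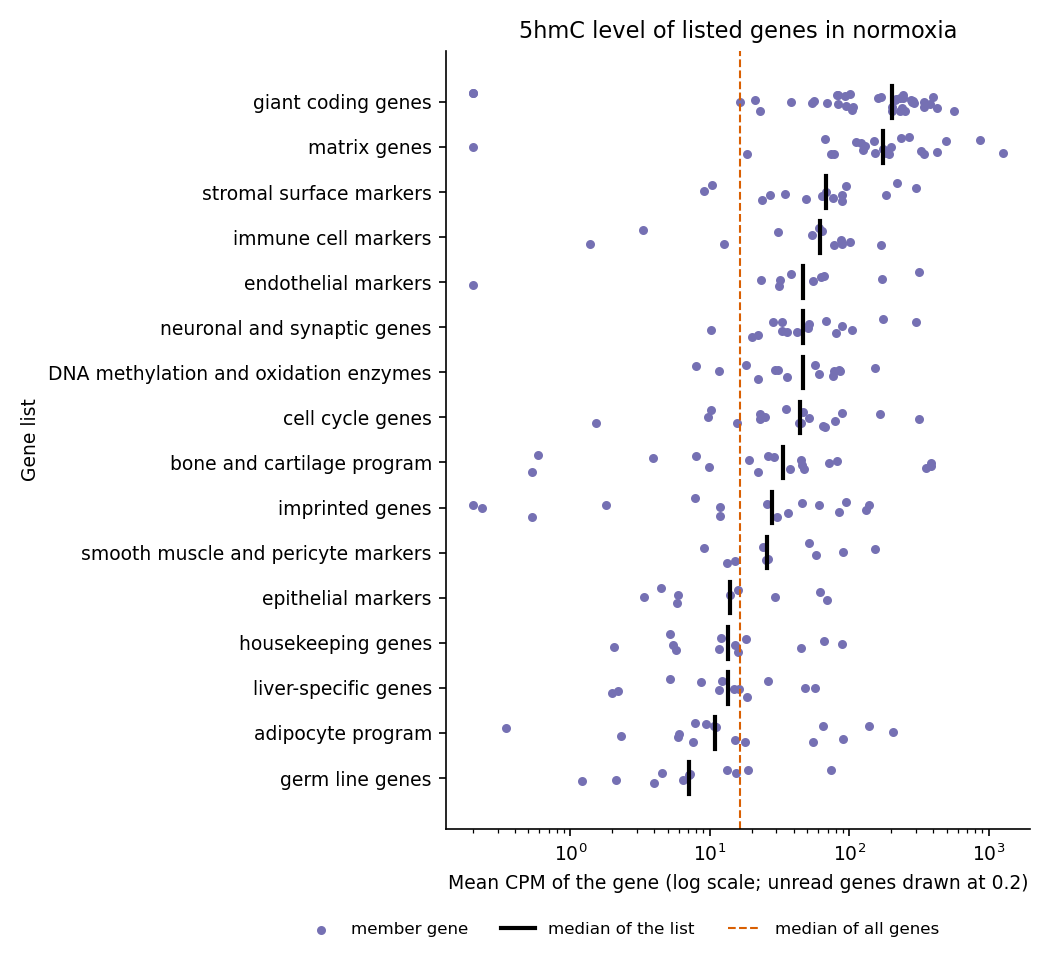
Mean CPM over the 6 normoxia libraries (log scale) of each member of the 16 gene lists (points), with the list's median (black bar) and the median of all genes, 16.4 CPM (dashed line). Very large coding genes (median 201 CPM) and matrix genes (174 CPM) lie furthest right, and germ line genes (7.14 CPM) furthest left; members without a read are drawn at 0.2.

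In total, 11 of the 16 lists had a median above that of all genes and 5 below it. Neither count nor median is adjusted for gene length. When only members passing a minimum of reads were kept, 8 lists were above the median of the genes that passed. These 8 need not be among the 11, and the housekeeping list had no member that passed.

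The middle of the order was described by the 100 genes around the median of all genes with a read. They had 19.01 to 19.28 CPM and 7.33 to 10.7 reads per library on average. The 5 at its centre were DNAJC3, a chaperone of the endoplasmic reticulum, TREML1, a receptor on platelets, ANKZF1, a factor of ribosome quality control, and LOC100515772 and LOC110256402. DNAJC3 had 16.6 CPM in library 110, 21.4 in 16, 26.6 in 21, 9.36 in 33, 29.9 in 49 and 11.2 in 4. ANKZF1 had 16.6 CPM in library 110, 10.7 in 16, 3.79 in 21, 28.1 in 33, 26.4 in 49 and 29.4 in 4, the lowest being a single read. At this depth such a gene can span several-fold between libraries, though LOC110256402 ran only from 11.7 to 23.5 CPM. Neighbours in this part of the order cannot be told from each other.

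The spread between libraries fell with depth but less than counting error would. The coefficient of variation (CV, SD over mean) had a median of 46.0% in the middle 100 genes, where the variance of depth-scaled counts was 1.96 times the mean. In the highest 100 the CV had a median of 25.1% (8.03 to 107%), and the variance was a median of 18.3 times the mean, above 2 times for 98 of the 100. Over all genes, the median CV was 75.4% at 1 to 5 reads per library, 44.2% at 10 to 20, 31.9% at 50 to 100 and 25.1% at 200 or more. Counting error alone would give 61.2, 26.9, 12.4 and 6.41% at the median depth of those classes. The common biological coefficient of variation estimated by edgeR over 7049 genes was 0.318, and 0.277 over 8135 genes without library 21.

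**Figure D4:**
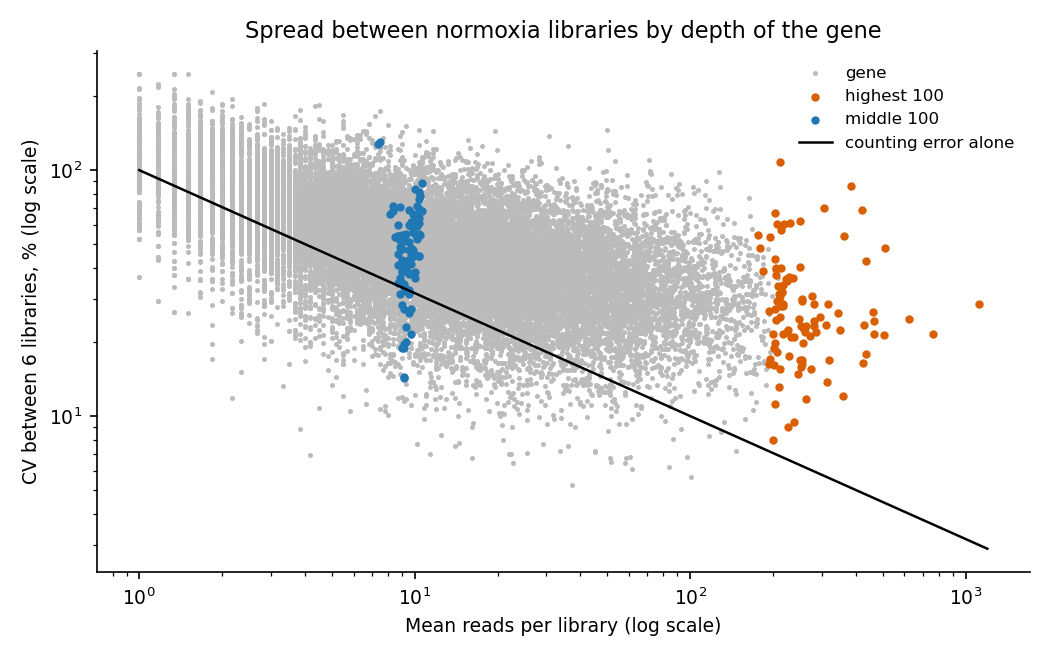
Coefficient of variation of CPM between the 6 normoxia libraries (log scale) against the gene's mean reads per library (log scale), for genes with at least 1 read per library on average; the black line is counting error alone. The middle 100 genes (blue) straddle the line, with a median of 46.0%, and the highest 100 (orange, median 25.1%) lie above it.

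Among the 640 genes with at least 100 reads per library on average, ATF7IP had the smallest CV. This partner of the histone methyltransferase SETDB1 had 199 CPM in library 110, 207 in 16, 190 in 21, 225 in 33, 208 in 49 and 209 in 4, a CV of 5.66%. TANC2, a synaptic scaffold protein, followed with 298 ± 21.5 CPM, then LPP, a protein of focal adhesions, with 408 ± 32.8. GLRA1, a glycine receptor subunit, had 245 ± 20.3 CPM and PAG1, a membrane adaptor, 266 ± 23.0. Library 21 was the lowest library for ATF7IP and LPP (379 CPM, others 384.5 to 468) and the highest for GLRA1 (273, others 218 to 257). These genes were picked for their small spread, so no library could lie far from the rest.

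The 5 largest CVs were all in genes without a named product. LOC110261504 had 1730 CPM in library 21 and 151 to 372 in the other 5, a CV of 107%. LOC110259331 (789 CPM in library 21, 91.5 to 231 elsewhere), LOC106505836 (683, against 120 to 203) and LOC100624460 shared this pattern. LOC110260391 differed: it had 95.2 CPM in library 110, 120 in 16, 262 in 21, 807 in 33, 113 in 49 and 258 in 4. Among the highest 100, 15 genes had more than 1.5 times the CPM of any other library in library 21, 12 coding and 3 noncoding. They include MGAM2 (1108 CPM, against 202 to 545), DNAH9 (1104, against 208 to 445), GRIN2B (1036, against 231 to 506) and YTHDF2 (1043, against 264 to 576). Library 21 was the highest library for 26 of the 100 genes and the lowest for another 26.

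The hypoxia libraries were not used for the ranking, so the same genes could be looked up there. Of the highest 100, 83 were among the 100 highest by mean CPM in hypoxia, and the lowest hypoxia rank of any of the 100 was 195. All of the first 20 were among its highest 100 and 17 among its first 20, with LOC110257572 again first. The 15 genes that were high in normoxia library 21 had ordinary values in hypoxia library 21, which was the highest hypoxia library for 4 of them and exceeded the next by 1.5 times for none. LOC100624460 had 1002 CPM there, within the 723 to 1024 of the other 5, and NACA 716, within 545 to 879.

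Some other differences between libraries came back with the title number. ACTA2, the smooth muscle actin of contractile cells, had 149 CPM in library 110, 158 in 16, 18.97 in 21, 21.1 in 33, 169 in 49 and 26.6 in 4 of normoxia. In hypoxia it had 94.1 CPM in library 110, 79.2 in 16, 19.9 in 21, 12.7 in 33, 91.9 in 49 and 17.7 in 4. In each group the same 3 numbers were high and the same 3 low, without overlap, and these are the numbers that were high for THBS1 in normoxia. TAGLN, another contractile gene, had 31.0, 47.0 and 52.8 CPM in normoxia libraries 110, 16 and 49 and 2.34 to 7.59 in the other 3. Its hypoxia values were 13.1, 34.0 and 35.2 CPM against 7.46 to 10.9. The low normoxia values of TAGLN were 1 to 3 reads, and all hypoxia libraries together held 50 of its reads. The values of 13.1 and 10.9 CPM are thus a few reads each, and TAGLN does not separate the sets in hypoxia. THBS1 did not follow the ACTA2 pattern in hypoxia, where library 4 was highest with 1513 CPM.

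LRRC8D was highest in hypoxia library 33 too (1337 CPM), with library 4 next (1128), and LOC110260391 had 481 CPM in hypoxia library 33 and 324 in library 4 against 80.1 to 159 in the rest. PTGS2, the inducible cyclooxygenase and number 68 in the order, had 555 CPM in normoxia library 110, 85.4 in 16, 197 in 21, 798 in 33, 690 in 49 and 408 in 4. Library 16 was lowest in hypoxia as well, with 73.6 CPM against 246 to 448. ACTA2, TAGLN and PTGS2 were picked for display after their values were seen. Over all 640 genes with at least 100 reads, the highest library carried the same number in both groups for 221 (34.5%) and the lowest for 213 (33.3%). Without number 21 these were 245 (38.3%) and 262 (40.9%). For most of the 640 genes the number thus differed between normoxia and hypoxia. The share expected without any link between equal numbers was not estimated.

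**Figure D5:**
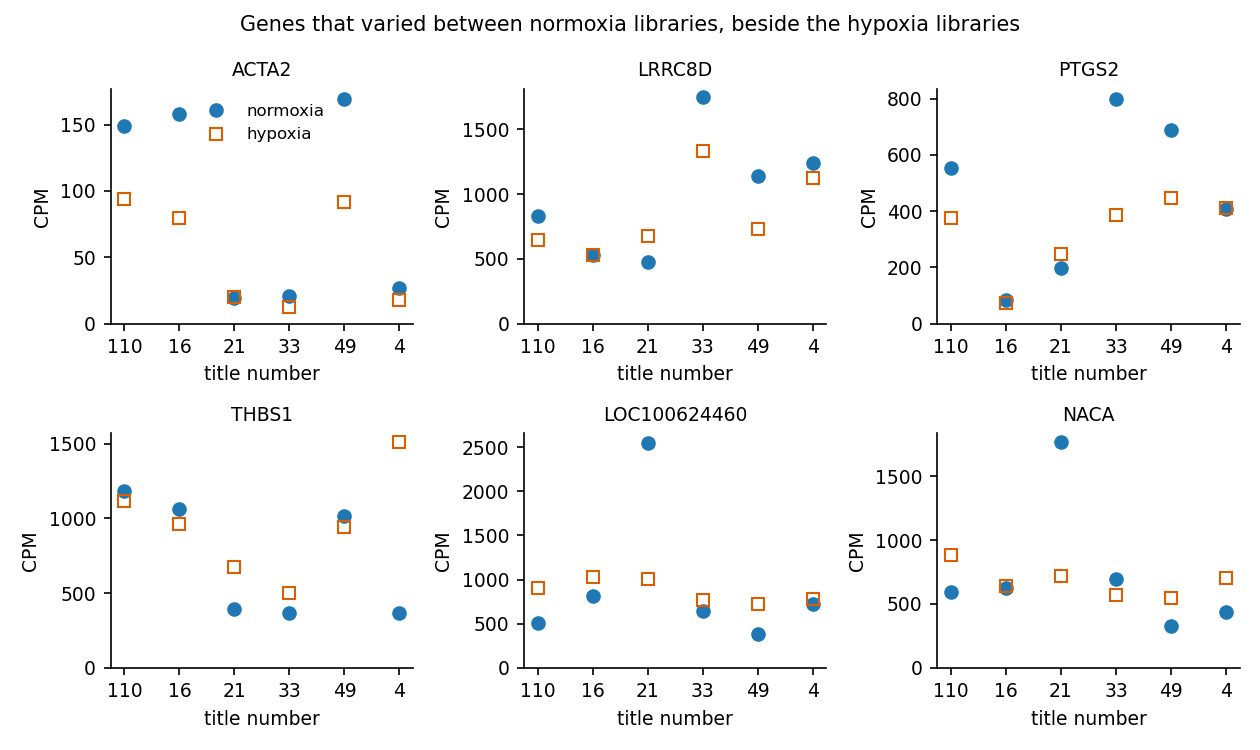
CPM of 6 genes by title number in the normoxia libraries (filled circles) and in the hypoxia libraries of the same number (open squares), each panel from 0. ACTA2 is high in numbers 110, 16 and 49 of both groups, LRRC8D is highest in number 33 and PTGS2 lowest in number 16 of both, while LOC100624460 and NACA are high in normoxia library 21 alone.

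At the bottom of the order, 2244 genes (8.21%) had no read in any of the 6 libraries. With 2924467 gene reads in all, 0 reads allow up to 1.03 CPM over the group (3 reads, counting error only). Placement on the assembly divided them. The Sscrofa11.1 table places 1356 genes of the count tables on no chromosome, and all 1356 had no read here and none in hypoxia. The peak lists name 21 chromosomes (the autosomes, X, Y and the mitochondrial one) and no unplaced sequence. Whether a read could be assigned to those genes at all cannot be told from the tables, so their 0 is not read as a lack of 5hmC. Another 250 unread genes, of 501 that could not be matched to the table, have no known place. Among the unplaced are, named after their values were seen, HSP90AA1, a chaperone, NOTCH1, a receptor that sets cell fates, AKT1, a kinase, HMOX1, the haem oxygenase, and the list members COL6A2, DYNC1H1, AHNAK2 and SNRPN.

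That left 638 unread genes on a chromosome, or 2.50% of the 25482 placed. They were 391 coding genes (2.00% of the placed coding genes), 107 microRNA genes (34.9%), 88 long noncoding genes (1.62%), 25 tRNA genes (53.2%) and 17 V segments of immune receptors (23.3%), besides 8 transcribed pseudogenes and a few others. MicroRNA and tRNA genes, which are short, were thus unread most often. Of the 638, 72 are placed on Y, and the animals were female. Without Y the unread shares were 1.73% of coding and 1.33% of long noncoding genes. In hypoxia 201 of the 638 had a read and 437 had none, and no gene unread in normoxia had more than 8 reads there. Coding genes among them, named after their values were seen, are SOX2 and HES5, factors of neural and other stem cells, CDX1 and CDX2, factors of the gut, and JUN, a part of AP-1. INS (insulin), AVP (vasopressin), the tight junction genes CLDN3 and CLDN5, CTSD (cathepsin D), S100A6 and EGLN2, an oxygen sensor of the HIF pathway, were also unread. In hypoxia CTSD had 4 reads, CDX2, S100A6 and RPL18 2 each, and CDX1, CLDN3 and HES5 1 each, while SOX2, JUN, INS, AVP, CLDN5 and EGLN2 again had none.

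The sex chromosomes stood apart from the autosomes. The 996 genes on X had a median of 11.5 CPM, against 19.1 for 24393 autosomal genes, and among coding genes the medians were 13.2 and 20.9. None of the highest 100 genes and 15 of the first 1000 were on X. By library, the X median was 10.3 CPM in 110, 10.7 in 16, 11.4 in 21, 9.36 in 33, 8.80 in 49 and 12.6 in 4. It was lower than the autosomal median in 6 of 6 libraries, at 0.610 ± 0.0739 of it (SD, n = 6), with library 21 highest at 0.750 and the others between 0.556 and 0.625. These medians are of whole reads, and a read was worth 3.79 CPM in library 21. Its medians of 11.4 CPM for X and 15.2 CPM for autosomes thus rest on a few reads, and its ratio moves in coarse steps. The animals were female, and 72 of the 93 genes placed on Y had no read, SRY, AMELY and EIF1AY among them. Of the 21 Y genes with a read, LOC110257870, LOC110257914 and CD99, a gene of the region shared with X, had over 100 reads in all. Y genes held 106 (library 21) to 232 reads (library 4) per library, and each library had 176 to 365 peaks on Y. Where these Y reads came from was not tested.

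The 6 libraries came from lanes 7 (110, 16, 21 and 33) and 8 (49 and 4), per their file names. Genes were tested between the lanes with edgeR's quasi-likelihood test and Benjamini-Hochberg adjustment over 13785 genes. No gene was called at an adjusted p of 0.05 (0% called), and the smallest adjusted p was 0.999. At an unadjusted p under 0.05 there were 336 genes (2.44%), 168 in each direction, and DESeq2's Wald test also called 0 genes, with 366 under that p. Among the genes with the smallest p were BDKRB2, a bradykinin receptor, with 296 CPM in library 49 and 154 in 4 against 22.8 to 93.6 in lane 7 (log2 difference 1.66 ± 0.48 SE, edgeR adjusted p = 0.999), and UNC13C, a synaptic protein, with 22.9 and 23.8 against 49.1 to 98.6 (log2 difference -1.81 ± 0.52 SE, edgeR adjusted p = 0.999). Of the other genes with the smallest p, ADAM8, C3H16orf54, LOC106504277 and LOC100739163 had the higher mean CPM in lane 8, and PSMA5, LOC110260185, LOC106506036 and LOC110255624 in lane 7. A p that misses the threshold with 2 libraries in a lane does not show that the lanes were alike.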

How the data were processed

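Genomic DNA of the 12 libraries was treated with RNase, sonicated, denatured and pulled down with an anti-5hmC antibody, and single-stranded libraries were sequenced from both ends, per the labels' protocols. HTSeq, Bowtie2, Picard, MACS2 and edgeR are listed in the submitters' processing notes, with no version. The build, annotation, strand setting and feature type (exons or whole genes) were not given in the sources used here. Overlapping genes, antisense genes and near-identical copies cannot be separated.

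For each library the authors deposited a table of raw counts by gene symbol from HTSeq, and MACS2 peaks. In the deposited peak lists each peak has a score, a fold enrichment (ratio) and −log10 p and q values. These are the authors' values, and only the number, width and chromosome names of peaks are reported here. Rows that name no gene (97.1 to 98.3% of reads) were left out of library sizes. Reads outside any counted feature made up 88.0 to 93.0% of all reads, and reads of low alignment quality 4.12 to 10.3%. An input sample is also labelled and was not analysed here.

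CPM is a gene's count over the sum of gene rows. Genes were ranked by the mean over the 6 normoxia libraries in Python 3.11.15 with pandas 2.3.3, and names and placement come from the RefSeq table of Sscrofa11.1, which matched 26838 symbols. It was used for names, kinds and neighbours and none of its coordinates or lengths are given. Lanes were compared, and the common dispersion estimated, with edgeR 4.0.16 (R 4.3.3). Genes were kept by filterByExpr (min.count 10, min.total.count 15), scaled by TMM and tested with glmQLFit and then glmQLFTest. DESeq2 1.42.0 was the alternative. The fit was tested on simulated data. Other results are descriptions without a test.

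The text names the 20 genes with the most reads, the 5 nearest the median rank, the 5 smallest and 5 largest CVs among genes with at least 100 reads per library, the first 2 and the last member of each list in order of mean CPM, unread members of short lists, and the 5 genes per direction with the smallest p between lanes. Not every gene that this rule names is reported here. Lists of 16 gene groups and families of names were described. The members and lists were chosen with earlier results of these data known. Alternatives were TMM and DESeq2 scaling, the median over libraries, all reads as the denominator, other read minimums, pooled or thinned counts, and leaving out each library.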

Additional observations from a re-analysis of the deposited data

Results flagged for a closer look

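In 17 of 103 sets of 6 library values, a single library lay further from the rest than Dixon's 95% limit allows. Chance does this in about 1 of 20 sets that were not chosen by their values, and that rate does not hold for the gene sets here. They include genes picked for a high mean or for a small or large CV in these same libraries, and the 5 picked for the largest CV are all among the 17. In 14 of the 17 it was normoxia library 21. For the libraries themselves these were 1.69% of reads in genes (the other 5 had 2.48 to 2.89%), 10.3% of low alignment quality (4.12 to 6.21%), a median peak width of 556 bases (257 to 359), and an X to autosome ratio of medians of 0.750 (0.556 to 0.625). The medians in that ratio are a few whole reads per gene, so it moves in coarse steps.

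Library 21 was apart at the genes LOC110257546 (2364 CPM, others 477 to 910.5), LOC100624460 (2550, others 384 to 816), NACA (1764, others 331 to 695), LOC110261504 (1730, others 151 to 372), LOC110259331 (789, others 91.5 to 231) and LOC106505836 (683, others 120 to 203). It was also high at CD8A, a T-cell coreceptor (247 CPM, others 53.4 to 93.8), and APOB, a lipoprotein of the liver (148, others 22.8 to 64.4), and low at SMG6 (584, others 1038 to 1201). The median of the germ line genes was 18.97 CPM in library 21 and 2.34 to 8.28 in the others, which is again only a few reads per gene. In hypoxia library 21, CD8A had 87.1 CPM, within the 70.4 to 105 of the other hypoxia libraries.

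Library 33 was apart at LOC110260391 (807 CPM, others 95.2 to 262) and at the integrin gene ITGA1 (344, others 171 to 226). CEBPB was flagged for its single read, 2.07 CPM in library 110.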

How the results depend on the processing

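The 100 highest genes all stayed among the highest under TMM scaling, and 89 did when libraries were averaged by their median. Leaving out single libraries kept 89 (without library 21) to 97 (without library 4). Their share of gene reads was 5.73% in pooled counts and 5.74 to 6.07% with a library left out. The number of unread genes was 3438 when up to 3 reads in all counted as unread, 2612 expected after thinning to the depth of library 21, and 2293 to 2455 with a library left out. Genes read in every library numbered 5974 at a minimum of 10 reads and 18584 to 20280 with a library left out. The common biological coefficient of variation was 0.375 over all genes with a read, 0.319 without TMM, and 0.277 (without library 21) to 0.332 (without library 110) with a library left out. No gene was called between lanes under any of the 9 alternatives run, with 192 to 947 genes at an unadjusted p under 0.05.

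The mean CPM of each of the 86 named genes with a read moved by less than its SD between libraries under TMM scaling and DESeq2 size factors. With the median or with a library left out these means also moved by less than the SD. That outcome was fixed in advance for any values, so it is no check of the means. With the reads not counted on genes in the denominator 78 of the 86 moved further, since gene reads are a small share. The number of lists above the median of all genes was 11 under TMM scaling and with any library left out. Among members passing the count filter, 8 lists were above the median of the genes that passed. That filter moved 13 list medians by more than their SD, and no housekeeping gene of the list passed it. The ranking per coding length and the promoter windows were not run, as they need sequences not used here. No paired analysis was possible because the results describe 1 group. Depth limits the lower part of the order: the median gene had 8.17 reads per library.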
